A study of Homo sapiens with 12 samples.

Results

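The genes described here are the 35 aminoacyl-tRNA synthetase genes given by name, 19 coding for enzymes of the cytosol and 16 for enzymes of the mitochondrion, of the 60617 genes in the deposited table. They were found by their Ensembl identifiers, and all 35 passed the filter on low counts. The cells were NCI-H295R, an established line from a human adrenocortical carcinoma, the cancer of the steroid-making outer layer of the adrenal gland. RNA-seq of polyadenylated transcripts covered 4 groups with 3 biological replicates each, all treated for 96 h in total. The baseline group had DMSO, the vehicle. The EZH2i group had 62 µM EPZ-6438, an inhibitor of the histone methyltransferase EZH2, for 96 h. The CBPi group had 26 µM PRI-724, described in the labels as acting on CBP, for 96 h. The labels call both of these doses the IC50. The FSK group had vehicle for 48 h and then 10 µM forskolin, an activator of adenylyl cyclase, for 48 h. The model is 1 cell line, so p-values measure the spread between replicate cultures of that line.

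An aminoacyl-tRNA synthetase joins an amino acid to its own transfer RNA, and this charged tRNA then carries the residue to the ribosome. Cytosolic ribosomes and the ribosomes of the mitochondrion draw on separate pools of charged tRNA, and for most amino acids separate nuclear genes, written with the suffix 1 or 2, code for the enzymes of the 2 compartments. KARS1 and GARS1 each code for both forms and are counted here as cytosolic. EPRS1 is a bifunctional enzyme for glutamate and proline, whose mitochondrial counterparts are the separate enzymes EARS2 and PARS2, and the cytosolic phenylalanine enzyme is built from the subunits FARSA and FARSB. Several cytosolic synthetases, EPRS1, IARS1, KARS1, LARS1, MARS1, QARS1 and RARS1 among them, sit together in a multi-synthetase complex. Many cytosolic synthetase genes are known targets of ATF4, a transcription factor whose translation rises when the initiation factor eIF2 is phosphorylated, and which binds a composite C/EBP-ATF response element.

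Libraries held 20.6 to 31.5 megacounts. In the text, CPM are library-scaled counts (per 1e6 counts, TMM), and RPKM are these CPM per kilobase of the deposited gene length, used where levels of different genes are set side by side. CBPi replicate 2 stood apart from the other 2 CBPi libraries: the chi-square per degree of freedom of its pairs was 13.2 and 12.1, against 2.56 to 6.68 for the other replicate pairs. The 7 markers of adrenocortical cells (STAR, CYP11A1, CYP17A1, HSD3B2, NR5A1, INHA and MC2R) summed to 1692 to 1744 CPM in the baseline libraries. The sum lay between 2629 and 2791 CPM under FSK, between 568 and 593 under EZH2i and between 499 and 566 under CBPi, and the part of this shift in the results that follow was not tested. The 9 markers of other cells summed to 9.08 to 19.9 CPM over the 12 libraries. PTPRC, the pan-leukocyte marker, was at 0 in every baseline, CBPi and FSK library and reached 0.0331 CPM with EZH2i, and PECAM1, an endothelial marker, reached 0.134 CPM. Of the 6 that passed the filter on low counts, 1 rose and 2 fell with EZH2i, 1 rose and 3 fell with CBPi, and 4 rose and 2 fell with FSK. With FSK the rises were those of LUM (mean 0.0397 CPM at baseline and 4.61 with FSK), DCN (0.715 and 1.66), VWF (0.101 and 0.942) and CD68 (0.141 and 0.929), and COL1A1 and COL1A2 fell. CD68 also rose with both inhibitors, and the part of these genes in the results was not tested. In bulk RNA, fewer cells of a kind and less RNA per cell cannot be told apart. Transcripts of the mitochondrion's own genome took between 2.37% and 3.22% of counts at baseline and between 2.64% and 3.22% under FSK. Their share lay between 3.27% and 4.4% under EZH2i and between 3.58% and 4.81% under CBPi.

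At baseline the compartments differed in their medians, while their ranges overlapped (plot of baseline RPKM by member). The 19 cytosolic genes had a median of 31.1 RPKM and the 16 mitochondrial genes a median of 7.2 RPKM. Of the mitochondrial genes, IARS2, the isoleucine enzyme, alone lay above the cytosolic median, at 44.8 RPKM. EPRS1 stood far above every other member, with 258.5, 273 and 275 RPKM in the 3 baseline libraries. That was 5.1-fold the level of the next member, IARS1 at 52.7 RPKM, and 99.5% of the genes tested were lower. EPRS1 supplied 35.9%, 36.1% and 36.2% of all CPM assigned to the 19 cytosolic genes at baseline, a share of reads and not of molecules. The lowest cytosolic member was CARS1, the cysteine enzyme, at 2.52 RPKM, and the lowest of all was WARS2, the mitochondrial tryptophan enzyme, at 2.46 RPKM.

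**Figure D1:**
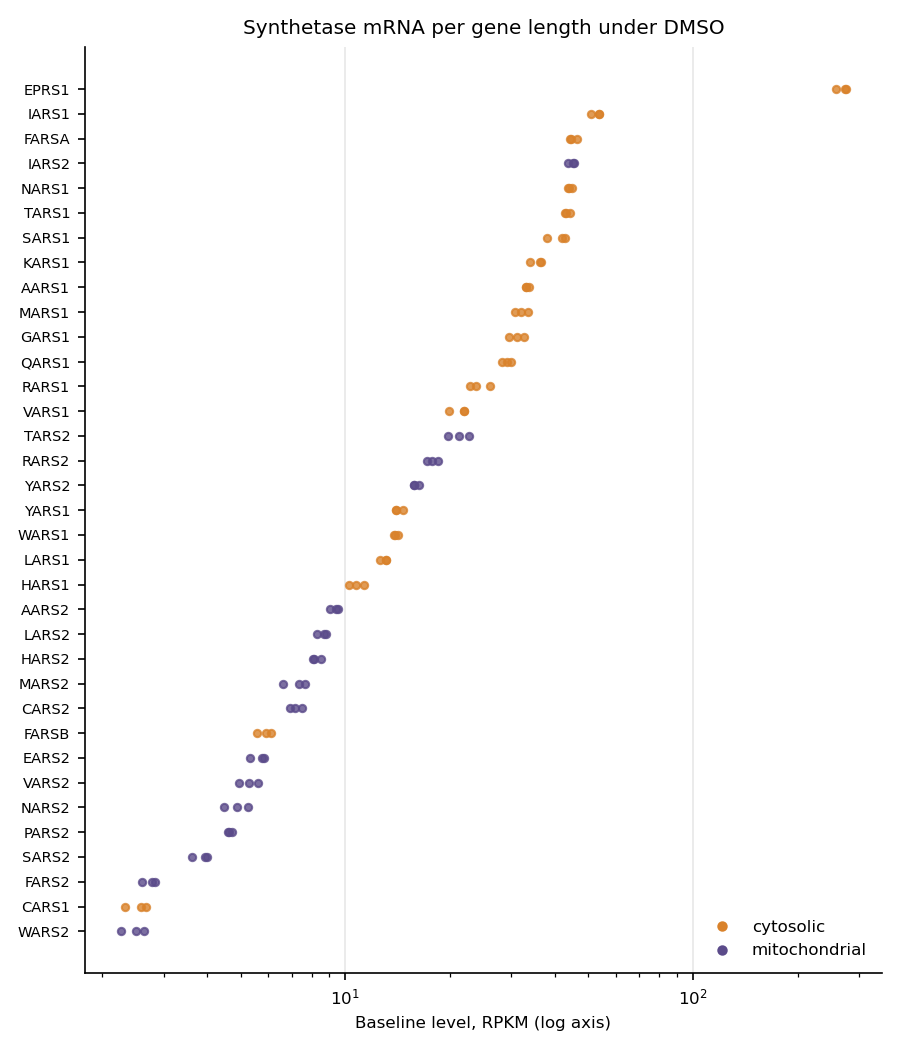
Level of each of the 35 synthetase genes in the 3 baseline libraries, in RPKM on a log axis, ordered by level. Cytosolic genes are orange and mitochondrial genes purple. EPRS1 lies apart at the top at 269 RPKM, IARS2 is the highest mitochondrial gene at 44.8 RPKM, and WARS2 is the lowest of all at 2.46 RPKM.

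Promoter windows from RefSeq (GRCh38.p14), each running from 250 bases before a transcript start to 50 after it, were given for 30 of the 35 genes. The windows of LARS1, VARS1, YARS1, AARS2 and VARS2 were not used here. The windows given were searched on both strands for TGATGNAA, the core of the C/EBP-ATF response element, and for its narrower form TGATGCAA, every match of which is also a match of TGATGNAA. The core was found in 7 of 16 cytosolic genes (43.8%) and 1 of 14 mitochondrial genes (7.14%), against 4.46% of the 27305 genes in the whole table. The narrower form was found in 6 of the 16 cytosolic genes (37.5%) and 0 of the 14 mitochondrial genes, against 1.08% of all genes. The 8 matches with 10 bases on either side are printed because the cytosolic genes that carry them are compared further on with those that do not. Capitals mark the matched core, each sequence runs 5′ to 3′ in the orientation of the core, and the strand is that of the chromosome:
AARS1 (chr16:70289676-70289703, plus strand): ctaacttggcTGATGCAActgcgagaaa
CARS1 (chr11:3057408-3057435, plus strand): tcctagaatcTGATGCAAccgccgcccc
GARS1 (chr7:30594835-30594862, minus strand): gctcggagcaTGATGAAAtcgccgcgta
IARS1 (chr9:92293693-92293720, plus strand): cgcacggaggTGATGCAAcgcgctgaaa
MARS1 (chr12:57488054-57488081, minus strand): aatccctcgcTGATGCAAccggaaccgg
NARS1 (chr18:57621805-57621832, minus strand): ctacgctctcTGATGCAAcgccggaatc
TARS1 (chr5:33440957-33440984, minus strand): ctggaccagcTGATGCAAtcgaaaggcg
YARS2 (chr12:32756077-32756104, minus strand): tccacactgcTGATGGAAaaattaagtt

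Counting the transcript start as position 0 and bases before it as negative, the cores of GARS1, IARS1, MARS1, CARS1, TARS1 and NARS1 began at positions -33, -13, -4, -2, 2 and 14. The cores of AARS1 and YARS2, the mitochondrial tyrosine enzyme, began farther upstream, at -187 and -197. A match is a description of the letters in this window and not a bound site.

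With the EZH2 inhibitor the members moved by compartment: 12 of the 19 cytosolic genes rose and 3 fell, while 15 of the 16 mitochondrial genes fell and 0 rose (edgeR, quasi-likelihood test, Benjamini-Hochberg adjusted p over the 20360 genes tested, threshold 0.05). Of all genes tested, 29.5% were called higher and 28.3% lower, 57.8% in either direction, with a median log2 fold change of 0.024. The 3 EZH2i and 3 baseline libraries did not overlap in 16 of the 19 cytosolic and 15 of the 16 mitochondrial genes, against 65.9% of all genes. The median log2 fold change was 0.25 for the cytosolic genes and -0.42 for the mitochondrial genes. The count of 0 mitochondrial rises was also 0 at an unadjusted p under 0.05, with DESeq2 and with limma voom. The share of counts from the mitochondrial genome was higher in every EZH2i library than in every baseline library, and its part in these calls was not tested.

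The steepest change of any member was that of EPRS1, which fell. Its 3 baseline libraries held 1376, 1454 and 1465 CPM and its 3 EZH2i libraries 580, 596 and 599.6 CPM. The groups lay far apart, a 2.42-fold difference (log2 fold change -1.28, SE 0.04, adjusted p = 1.06e-15). EPRS1 still supplied 15.7% to 16.3% of the CPM of the cytosolic genes.

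Among the cytosolic genes that rose, WARS1, the tryptophan enzyme, went from 89.9, 87.6 and 88.1 CPM to 149.9, 147 and 139 CPM (log2 fold change 0.71, SE 0.0399, adjusted p = 7.85e-12). GARS1, the glycine enzyme, went from 118, 130.2 and 125 CPM to 205, 202 and 197 CPM (log2 fold change 0.70, SE 0.042, adjusted p = 2.44e-11). CARS1 went from 25.9, 23.4 and 26.8 CPM to 39.2, 39.1 and 38.8 CPM (log2 fold change 0.63, SE 0.0605, adjusted p = 2.64e-08). In each of these 3 genes every EZH2i library lay above every baseline library. MARS1, the methionine enzyme, held 216, 225 and 235 CPM at baseline and 306, 324 and 316 with EZH2i (log2 fold change 0.48, SE 0.041). YARS1, the tyrosine enzyme, held 115, 121 and 115 CPM at baseline and 163, 162 and 155 with EZH2i (log2 fold change 0.45, SE 0.0406). IARS1 held 378, 396 and 397 CPM at baseline and 516, 519.7 and 522 with EZH2i (log2 fold change 0.41, SE 0.0378). MARS1 shares 982 bases with DDIT3, a gene on the other strand that also rose in all 3 comparisons with baseline, and no source used here gives the strand setting of the counting. The other cytosolic rises (AARS1, LARS1, NARS1, SARS1, TARS1 and VARS1) had log2 fold changes of 0.20 to 0.40.

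HARS1 and RARS1, the histidine and arginine enzymes, were the other cytosolic genes that fell. HARS1 went from 77.2, 80.9 and 85.3 CPM to 69.2, 71.8 and 65.7 CPM (log2 fold change -0.24, SE 0.0551, adjusted p = 0.00109). RARS1 went from 78.2, 81.4 and 89.3 CPM to 71.9, 76.3 and 75.4 CPM (log2 fold change -0.15, SE 0.0508, adjusted p = 0.0136), and its groups lay close together. The call of RARS1 was lost without baseline replicate 3 (-0.099, adjusted p = 0.113) or EZH2i replicate 1 (-0.13, adjusted p = 0.0674). FARSA, FARSB, KARS1 and QARS1 did not pass, with log2 fold changes of -0.11 to 0.08.

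WARS2 had the largest fall among the mitochondrial genes. It held 8.71, 9.61 and 10.1 CPM at baseline and 4.60, 4.50 and 5.26 CPM with EZH2i (log2 fold change -0.99, SE 0.0978, adjusted p = 4.02e-08). The tryptophan enzymes of the 2 compartments therefore moved in opposite directions, by 0.71 and -0.99 on the log2 scale. EARS2, which charges the mitochondrial glutamate tRNA and also, through a misacylated intermediate, serves glutamine, went from 33.5, 30.5 and 33.0 CPM to 18.8, 19 and 18.7 CPM (log2 fold change -0.78, SE 0.0561, adjusted p = 3.86e-10). SARS2, the serine enzyme, went from 12.8, 11.7 and 12.9 CPM to 7.32, 7.65 and 7.61 CPM (log2 fold change -0.73, SE 0.0844, adjusted p = 3.67e-07). SARS2 shares 15493 of its 15631 annotated bases with AC011455.2, a gene on the same strand, so its counts are uncertain. MARS2, the methionine enzyme, went from 19.9, 23.1 and 22.3 CPM to 13.5, 12.5 and 13.8 CPM (log2 fold change -0.72, SE 0.0726). All 3019 annotated bases of MARS2 are covered by AC011997.1 on the same strand, so its counts are uncertain in every comparison. IARS2 went from 180.2, 189 and 187 CPM to 112, 118 and 115 CPM (log2 fold change -0.69, SE 0.0419). LARS2, the leucine enzyme, went from 103, 108 and 109 CPM to 65.0, 68.1 and 65.1 CPM (log2 fold change -0.69, SE 0.0438). In all 6 of these genes no EZH2i library reached the lowest baseline library. The other mitochondrial falls ran from -0.18 in AARS2 to -0.52 in CARS2 on the log2 scale.

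VARS2, the valine enzyme, was the 1 mitochondrial gene that did not pass. It held 41.8, 47.4 and 44.6 CPM at baseline and 46.4, 49.5 and 52.8 CPM with EZH2i (log2 fold change 0.15, SE 0.0939, adjusted p = 0.186), and the groups overlapped. VARS2 shares 5865 bases with GTF2H4 on the same strand, so reads of the 2 genes may be split between them. The call of HARS2 was lost without baseline replicate 3 (-0.17, adjusted p = 0.0707) or EZH2i replicate 2 (-0.12, adjusted p = 0.13). The call of NARS2 was lost without EZH2i replicate 1 (-0.23, adjusted p = 0.0621). The call of PARS2 was lost without baseline replicate 2 (-0.23, adjusted p = 0.062), baseline replicate 3 (-0.22, adjusted p = 0.0719), EZH2i replicate 1 (-0.17, adjusted p = 0.137) or EZH2i replicate 3 (-0.22, adjusted p = 0.0687). Each of these 3 genes had an EZH2i log2 fold change no larger in size than 0.30. HARS2 also shares 639 bases with ZMAT2 on the same strand.

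**Figure D2:**
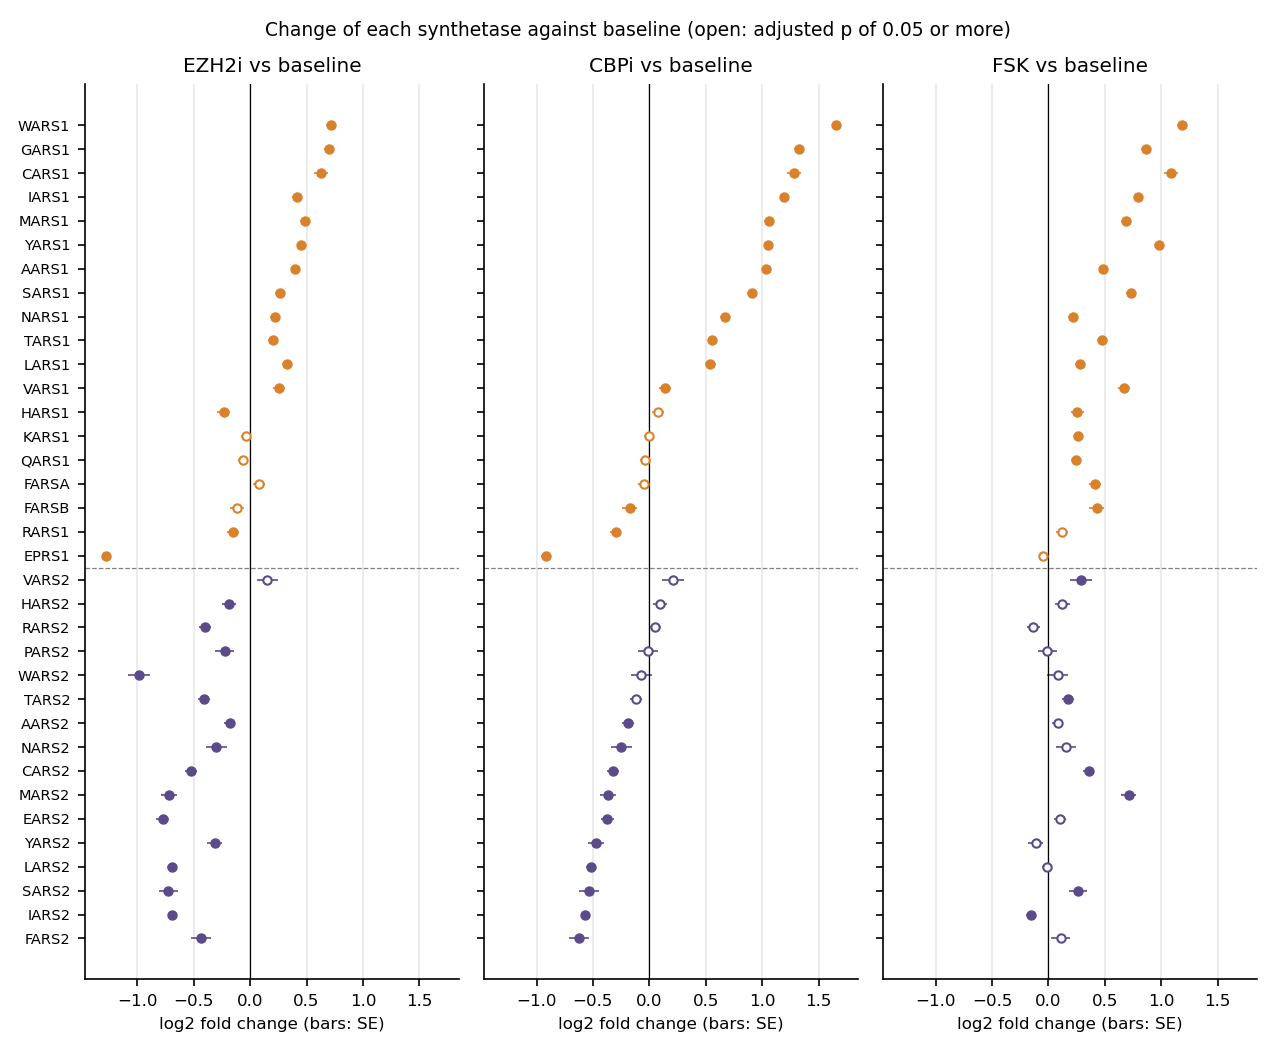
Log2 fold change against baseline with its SE for the 35 genes in 3 panels, EZH2i, CBPi and FSK, with cytosolic genes above the dashed line and mitochondrial genes below it. Filled points passed the adjusted p threshold of 0.05 and open points did not. With EZH2i all filled mitochondrial points lie below 0, and EPRS1 is the lowest cytosolic point at -1.28.

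With PRI-724 the cytosolic genes had as many calls as with the EZH2 inhibitor, 12 higher and 3 lower of 19, at a median log2 fold change of 0.56. Of the mitochondrial genes 10 of 16 fell and 0 rose, at a median of -0.29. Over all genes tested 29.8% were called higher and 29% lower, 58.9% in either direction, and the median was 0.0149. The groups did not overlap in 13 cytosolic and 10 mitochondrial genes, against 62.1% of all genes. The 0 mitochondrial rises became 1 at an unadjusted p under 0.05 (VARS2) and stayed 0 with DESeq2 and limma voom. Without CBPi replicate 2, 12 cytosolic genes rose and 4 fell, and 11 mitochondrial genes fell and 0 rose. As with EZH2i, the mitochondrial genome's share of counts was higher in every CBPi library than in every baseline library, and its part was not tested. The comparison uses the same baseline libraries as the other comparisons with baseline, so the fold changes are not independent of each other.

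WARS1 had the largest rise of any member in any comparison. Its CBPi libraries held 280.1, 281 and 277 CPM, 3.16-fold the baseline mean (log2 fold change 1.66, SE 0.0402, adjusted p = 2.26e-17). GARS1 reached 316, 317 and 303 CPM, 2.51-fold the baseline mean (log2 fold change 1.33, SE 0.0422, adjusted p = 1.08e-15). CARS1 reached 60.3, 62.4 and 61.5 CPM (log2 fold change 1.28, SE 0.0598, adjusted p = 4.15e-13). In all 3 genes every CBPi library lay above every library of the other 3 groups. IARS1 reached 861, 934 and 885 CPM (log2 fold change 1.19, SE 0.0382). MARS1 reached 457, 482 and 471 CPM (log2 fold change 1.06, SE 0.0412). YARS1 reached 241, 251 and 236 CPM (log2 fold change 1.05, SE 0.0407). AARS1 and SARS1, the alanine and serine enzymes, rose by similar amounts, with log2 fold changes of 1.03 and 0.91. LARS1, NARS1 and TARS1 had log2 fold changes of 0.54 to 0.67. VARS1 rose by 0.14. The call of VARS1 was lost without baseline replicate 1 (0.09, adjusted p = 0.181), CBPi replicate 1 (0.12, adjusted p = 0.0857) or CBPi replicate 3 (0.091, adjusted p = 0.19). DESeq2 gave it an adjusted p of 0.0565.

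EPRS1 fell here as well, to 729, 787 and 756 CPM, 1.89-fold below the baseline mean (log2 fold change -0.92, SE 0.0397, adjusted p = 1.25e-13). RARS1 fell to 67.7, 69.5 and 65.0 CPM (log2 fold change -0.30, SE 0.0516, adjusted p = 5.01e-05). FARSB had 38.9, 42.9 and 41.4 CPM at baseline and 35.3, 40.1 and 33.8 CPM with CBPi, and although the mean was lower the groups overlapped (log2 fold change -0.18, SE 0.0648, adjusted p = 0.0256). The call of FARSB was lost without baseline replicate 2 (-0.14, adjusted p = 0.119), baseline replicate 3 (-0.17, adjusted p = 0.06), CBPi replicate 1 (-0.16, adjusted p = 0.0757) or CBPi replicate 3 (-0.12, adjusted p = 0.149). FARSA, HARS1, KARS1 and QARS1 did not pass, with log2 fold changes of -0.05 to 0.08.

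FARS2, the mitochondrial phenylalanine enzyme, had the largest mitochondrial fall with CBPi. It went from 12.5, 13.4 and 13.7 CPM to 9.50, 8.12 and 8.21 CPM (log2 fold change -0.62, SE 0.0924, adjusted p = 8.1e-06). IARS2 fell to 125, 125 and 125 CPM (log2 fold change -0.57, SE 0.042, adjusted p = 4.79e-10). SARS2 fell to 8.19, 8.08 and 9.36 CPM (log2 fold change -0.54, SE 0.0857, adjusted p = 2.09e-05). These 3 genes had no overlap between the groups. LARS2 fell to 74.3, 75.3 and 74.0 CPM (log2 fold change -0.52, SE 0.044). YARS2 fell from 34.0, 34 and 35.1 CPM to 24.5, 23.3 and 26.4 CPM (log2 fold change -0.47, SE 0.0691). YARS2 shares 18161 of its 28413 annotated bases with DNM1L on the other strand. As the strand setting is not given, the counts of YARS2 are uncertain in every comparison. WARS2, the deepest mitochondrial fall with EZH2i, stood at 9.11, 9.12 and 8.87 CPM with CBPi, within the range of the baseline libraries (log2 fold change -0.07, SE 0.0925, adjusted p = 0.534). The other falls were those of AARS2, CARS2, EARS2, MARS2 and NARS2, with log2 fold changes of -0.37 to -0.19. The call of NARS2 was lost without baseline replicate 1 (-0.19, adjusted p = 0.128), baseline replicate 2 (-0.25, adjusted p = 0.0715) or CBPi replicate 3 (-0.23, adjusted p = 0.0847). HARS2, PARS2, RARS2, TARS2, VARS2 and WARS2 did not pass.

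**Figure D3:**
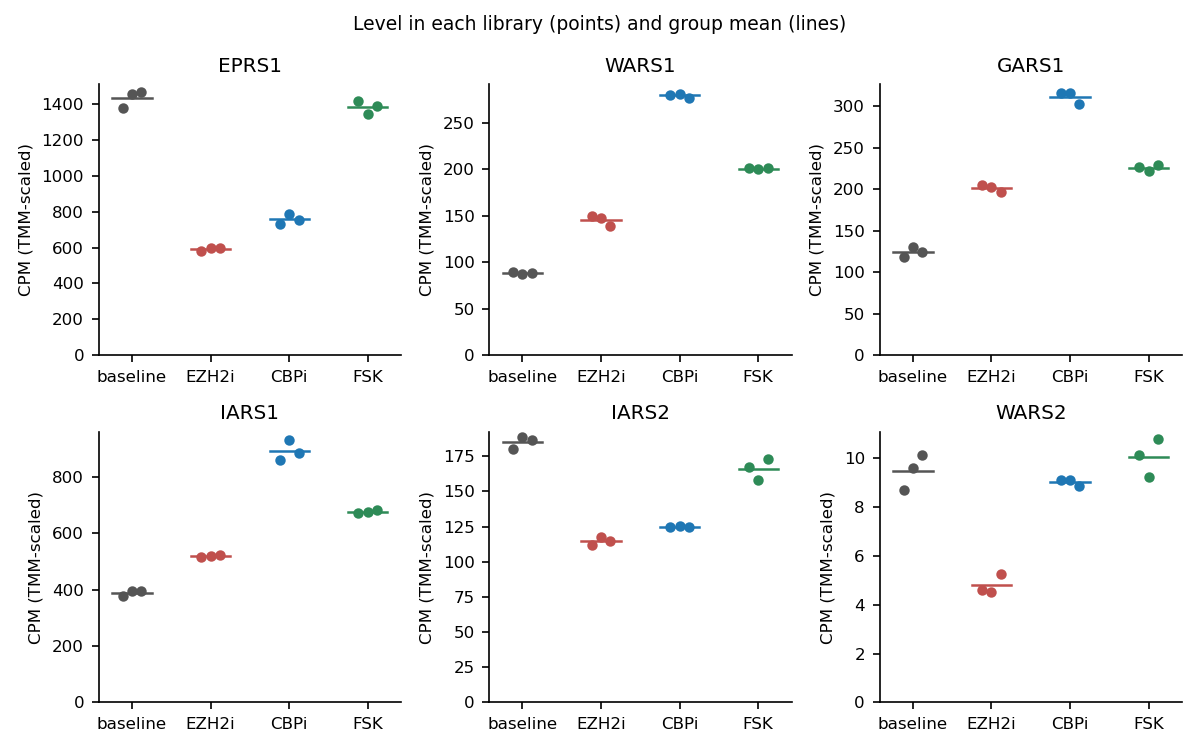
CPM in each of the 12 libraries for EPRS1, WARS1, GARS1, IARS1, IARS2 and WARS2, with the group mean as a line and each axis starting at 0. EPRS1 is near 1432 CPM at baseline and near 592 with EZH2i. WARS1, GARS1 and IARS1 are highest with CBPi, and WARS2 is low in the EZH2i libraries alone.

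With forskolin 17 of the 19 cytosolic genes rose and 0 fell, at a median log2 fold change of 0.47. Of the mitochondrial genes 5 of 16 rose and 1 fell, at a median of 0.11. Over all genes tested 25.5% were called higher and 25.1% lower, 50.6% in either direction, and the median was 0.0146. The 5 mitochondrial rises of 16 lie near the share of all genes called higher, so their count is no result about the mitochondrial genes. The groups did not overlap in 17 cytosolic and 11 mitochondrial genes, against 57.5% of all genes. The 0 cytosolic falls were also 0 at an unadjusted p under 0.05, with DESeq2 and with limma voom. With library size as the only scaling, EPRS1 counted as lower (log2 fold change -0.118, adjusted p = 0.0135). That scaling gave 2 mitochondrial rises and 3 mitochondrial falls.

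WARS1 again led the rises. Its FSK libraries held 201, 199.9 and 201 CPM, 2.27-fold the baseline mean (log2 fold change 1.18, SE 0.0401, adjusted p = 2.13e-15). CARS1 held 57.1, 49.8 and 53.8 CPM (log2 fold change 1.08, SE 0.0603, adjusted p = 5.3e-12). YARS1 held 231, 229 and 229 CPM (log2 fold change 0.98, SE 0.0407, adjusted p = 5.15e-14). In all 3 genes no FSK library came near the baseline range. GARS1 held 227, 222 and 229 CPM (log2 fold change 0.86, SE 0.0421). IARS1 held 674, 677 and 682 CPM (log2 fold change 0.80, SE 0.038). SARS1 went from 147, 162 and 165 CPM to 271, 253 and 261 CPM (log2 fold change 0.73, SE 0.0446). The rise took in genes that had not risen with either inhibitor: FARSA, FARSB, HARS1, KARS1 and QARS1 had log2 fold changes of 0.24 to 0.43, and all passed.

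EPRS1 and RARS1 were the cytosolic genes that did not pass. EPRS1 held 1418, 1343 and 1390 CPM with FSK, inside or just below the baseline range of 1376, 1454 and 1465 CPM (log2 fold change -0.049, SE 0.0393, adjusted p = 0.32). RARS1 held 90.3, 87.8 and 92.2 CPM (log2 fold change 0.12, SE 0.0509, adjusted p = 0.0574). IARS2 was the 1 member that fell with FSK, to 168, 158 and 173 CPM, against 180.2, 189 and 187 CPM at baseline (log2 fold change -0.16, SE 0.0416, adjusted p = 0.00378). Its 3 FSK libraries all lay below its 3 baseline libraries.

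The mitochondrial genes that rose with FSK were MARS2, CARS2, VARS2, SARS2 and TARS2. MARS2 went to 37.3, 33.7 and 36.0 CPM from 19.9, 23.1 and 22.3 CPM at baseline (log2 fold change 0.71, SE 0.0678, adjusted p = 2.32e-08), the opposite direction to its fall with both inhibitors and with the same limit from the gene that covers it. CARS2, VARS2, SARS2 and TARS2 had log2 fold changes of 0.36, 0.29, 0.26 and 0.17. The call of SARS2 was lost without baseline replicate 2 (0.21, adjusted p = 0.0636) or FSK replicate 2 (0.21, adjusted p = 0.0552). The call of TARS2 was lost without baseline replicate 1 (0.12, adjusted p = 0.0658). The call of VARS2 was lost without baseline replicate 1 (0.24, adjusted p = 0.0792), baseline replicate 3 (0.29, adjusted p = 0.0538) or FSK replicate 2 (0.23, adjusted p = 0.0859). The other 10 mitochondrial genes lay between -0.13 and 0.16 on the log2 scale and did not pass.

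The 2 inhibitors were then compared directly, since they had the same exposure time. With CBPi, 13 of 19 cytosolic genes were higher than with EZH2i and 1 was lower, and 10 of 16 mitochondrial genes were higher and 0 lower. Over all genes tested 22.2% were called higher and 21.7% lower, 43.9% in either direction. The groups did not overlap in 16 cytosolic and 11 mitochondrial genes, against 52% of all genes. At an unadjusted p under 0.05, 1 mitochondrial gene was lower, and DESeq2 and limma voom both gave 0. Without CBPi replicate 2 the counts were 13 and 1 cytosolic and 9 and 0 mitochondrial. WARS1 differed most, at 279 ± 2.45 CPM (SD, n = 3) with CBPi and 145 ± 5.93 CPM with EZH2i (log2 fold change 0.94, SE 0.0387, adjusted p = 2.9e-13). WARS2 followed, at 9.03 ± 0.139 CPM with CBPi and 4.79 ± 0.414 CPM with EZH2i (log2 fold change 0.92, SE 0.0979, adjusted p = 2.8e-07). No CBPi library of these genes overlapped the EZH2i libraries, and with WARS1 and WARS2 both enzymes for tryptophan were among the largest differences. IARS1 was also higher with CBPi (log2 fold change 0.78, SE 0.0377, adjusted p = 2.73e-12). CARS1, SARS1 and AARS1 had log2 differences of 0.64 to 0.65. EPRS1, which fell with both, was 1.28-fold higher with CBPi (log2 fold change 0.36, SE 0.0395, adjusted p = 4.5e-07). RARS1 was the member that was lower with CBPi (log2 fold change -0.15, SE 0.0512, adjusted p = 0.027). The call of RARS1 was lost without EZH2i replicate 2 (-0.13, adjusted p = 0.101), EZH2i replicate 3 (-0.14, adjusted p = 0.0763) or CBPi replicate 3 (-0.12, adjusted p = 0.114). The call of IARS2 was lost without EZH2i replicate 1 (0.10, adjusted p = 0.098), EZH2i replicate 3 (0.12, adjusted p = 0.0594) or CBPi replicate 3 (0.12, adjusted p = 0.0512). The call of PARS2 was lost without EZH2i replicate 1 (0.16, adjusted p = 0.197), EZH2i replicate 3 (0.21, adjusted p = 0.103), CBPi replicate 1 (0.21, adjusted p = 0.0966) or CBPi replicate 2 (0.16, adjusted p = 0.183). The doses differ, 62 µM against 26 µM, each an IC50 per the labels.

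A test against a fold of 1.5, in place of any change, singled out the genes with the largest differences. With EZH2i GARS1 and WARS1 passed it as higher, where 6.62% of all genes did, and EPRS1, EARS2, IARS2, LARS2 and WARS2 as lower, where 4.79% did. With CBPi AARS1, CARS1, GARS1, IARS1, MARS1, SARS1, WARS1 and YARS1 passed as higher, against 6.09% of all genes, and EPRS1 as lower, against 6.14%. Of the 35 members, the 2 higher with EZH2i and the 1 lower with CBPi do not exceed these shares. Those 2 counts are no result about the members. With FSK CARS1, GARS1, IARS1, MARS1, SARS1, WARS1 and YARS1 passed as higher, against 5.34% of all genes called higher and 6.45% called lower. Between the inhibitors IARS1, WARS1 and WARS2 passed as higher with CBPi, against 1.33% of all genes called higher and 3.55% called lower.

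The cytosolic and mitochondrial enzymes of the same amino acid were set side by side in 15 pairs, with FARSA and FARSB each paired with FARS2, and EARS2 and PARS2 left unpaired. With EZH2i the cytosolic gene had the larger log2 fold change in 14 of 15 pairs, with a median gap of 0.61. The exception was HARS1 and HARS2, which are neighbours on opposite strands, overlap by 437 bases in the annotation and had log2 fold changes of -0.24 and -0.19. With CBPi it was so in 12 of 15 pairs, with a median gap of 1.06, and the exceptions were the histidine, arginine and valine pairs. With FSK it was so in 14 of 15 pairs, with a median gap of 0.32, and the exception was methionine, where MARS1 had 0.69 and MARS2 0.71. The pairs share libraries and, in the phenylalanine case, a gene, so no test was made over them.

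In each library the mean log2 CPM of the 16 mitochondrial genes was subtracted from that of the 19 cytosolic genes, a description that gives each gene equal weight. At baseline the difference was 1.99, 2.02 and 2.01 in the 3 libraries. It was 2.68, 2.65 and 2.59 with EZH2i, 2.78, 2.80 and 2.78 with CBPi and 2.44, 2.42 and 2.38 with FSK. The 4 groups did not overlap, and every treated library showed a wider gap than every baseline library. Group means ± SD (n = 3) were 2.01 ± 0.015, 2.64 ± 0.043, 2.79 ± 0.012 and 2.41 ± 0.035. The components differed: the mitochondrial mean was 5.05 to 5.11 at baseline and 4.58 to 4.65 with EZH2i. It was 4.81 to 4.84 with CBPi and 5.18 to 5.25 with FSK. The cytosolic mean was lowest in the baseline libraries, between 7.04 and 7.12. The EZH2i libraries followed, between 7.25 and 7.27, while CBPi (7.59 to 7.64) and FSK (7.60 to 7.64) overlapped. Summed CPM, which EPRS1 weighs on heavily, behaved otherwise for the cytosolic genes under EZH2i. Their mean sum was 3966 CPM at baseline and 3704 with EZH2i, but without EPRS1 it was 2535 and 3112. The CBPi and FSK groups had larger cytosolic sums than the baseline group, 5135 and 5211 CPM. The gap still widened on sums: the mean ratio of cytosolic to mitochondrial CPM, EPRS1 included, was 5.08 in the baseline group. The EZH2i, CBPi and FSK groups had larger ratios, 6.6, 8.06 and 6.34 in turn.

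**Figure D4:**
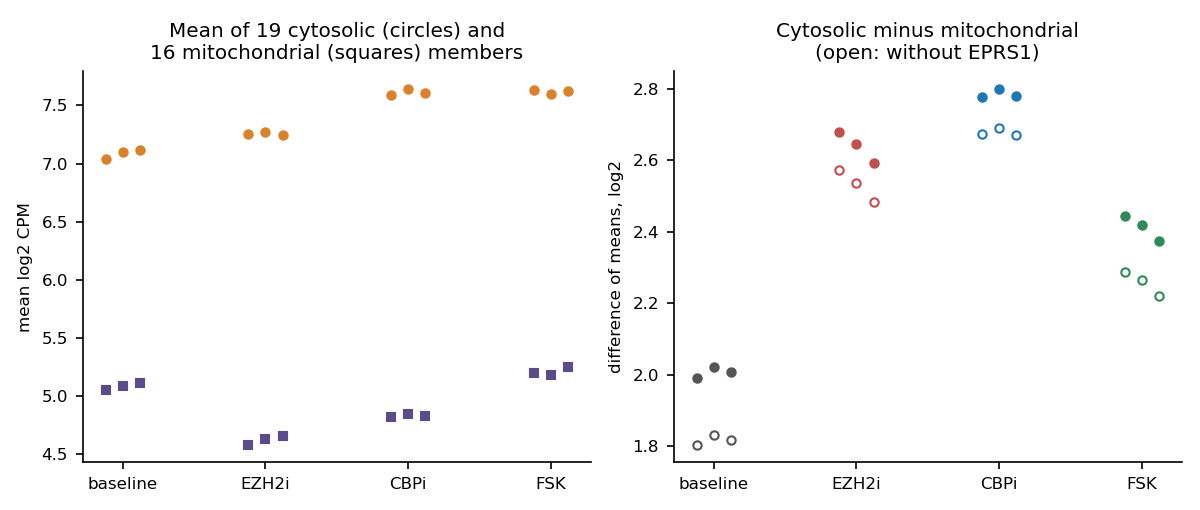
Left, mean log2 CPM of the 19 cytosolic and 16 mitochondrial genes in each of the 12 libraries. Right, the difference between them, with open points for the difference without EPRS1. The baseline libraries lie at 1.99 to 2.02 and the CBPi libraries at 2.78 to 2.80, with no overlap between groups in the filled points.

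Within the cytosolic genes, the 7 enzymes of the multi-synthetase complex had calls in both directions with either inhibitor. With EZH2i 3 rose (IARS1, LARS1 and MARS1), EPRS1 and RARS1 fell, and KARS1 and QARS1 did not pass. With CBPi the same 3 rose and the same 2 fell. With FSK 5 rose, and EPRS1 and RARS1 did not pass. Of the 12 cytosolic genes outside the complex 9 rose and 1 fell with either inhibitor, and 12 rose with FSK. Over all genes tested, 29.5% were called higher and 28.3% lower with EZH2i, 29.8% and 29% with CBPi, and 25.5% and 25.1% with FSK. The 2 falls of 7 inside the complex lie near the shares called lower, so the mix of directions is no result about the complex. Median log2 fold changes outside the complex were 0.26, 0.79 and 0.58 with EZH2i, CBPi and FSK, against -0.039, -0.006 and 0.26 inside it. The 3 scaffold proteins of the complex had median log2 fold changes of -0.23, 0.057 and -0.036. The 2 structural classes of the enzymes differ in the fold of the catalytic domain. EPRS1 was counted in neither class and fell with EZH2i (log2 fold change -1.28). Among the other genes both classes moved mostly by compartment. With EZH2i 7 of 9 cytosolic class I genes and 5 of 9 class II genes rose, and 1 of each class fell. Of the mitochondrial genes, 8 of 9 and 7 of 7 fell.

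The cytosolic genes were also described by the promoter core printed above (plot of fold change by core match). The 7 genes with a core, AARS1, CARS1, GARS1, IARS1, MARS1, NARS1 and TARS1, rose in all 3 comparisons with baseline. Their median log2 fold change was 0.41 with EZH2i, 1.06 with CBPi and 0.69 with FSK. Of the 9 genes with a window and no core, 2 rose and 3 fell with EZH2i at a median of -0.061. With CBPi 2 rose and 3 fell at a median of -0.039, and with FSK 7 rose and EPRS1 and RARS1 did not pass, at a median of 0.26. The 2 genes with a window and no core that rose with the inhibitors were SARS1 and WARS1, and WARS1 had the largest rise of all. LARS1, VARS1 and YARS1, which had no window, also rose in all 3 comparisons with baseline. With EZH2i, CBPi and FSK in turn, the log2 fold changes were 0.33, 0.54 and 0.28 for LARS1 and 0.25, 0.14 and 0.67 for VARS1. Those of YARS1 were 0.45, 1.05 and 0.98. Whether these genes carry a core was not searched. YARS2, the mitochondrial gene with a core, fell with EZH2i (log2 fold change -0.31, SE 0.0669) and with CBPi. The absence of a match says only that these letters are not in the 300 bases searched.

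**Figure D5:**
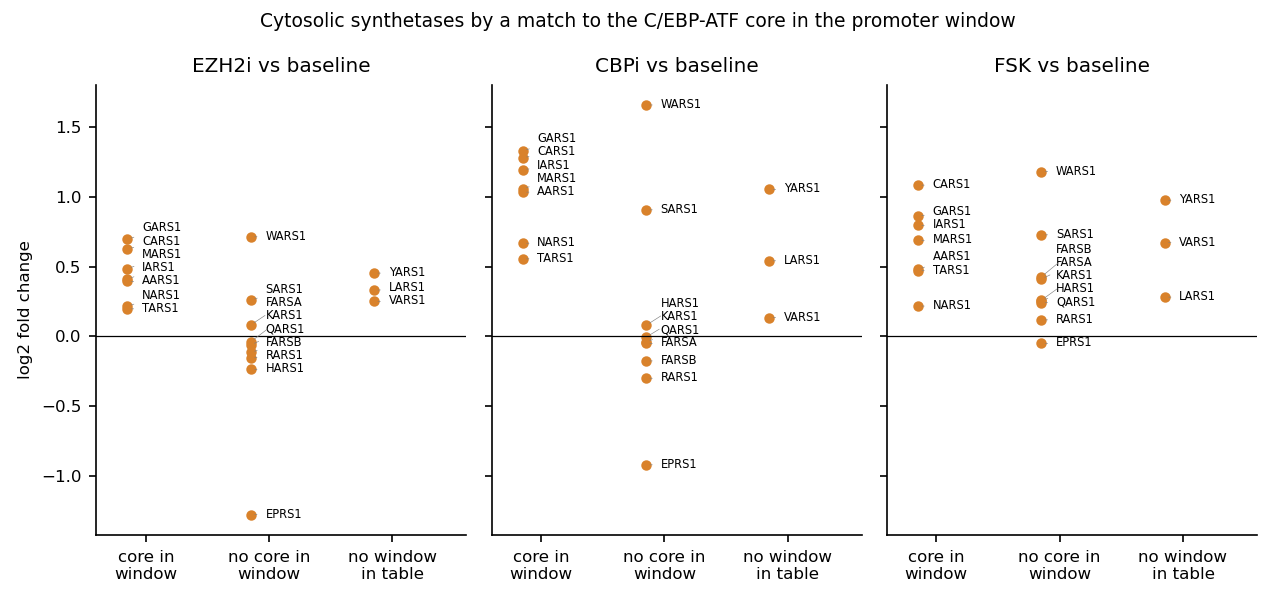
Log2 fold change against baseline of the 19 cytosolic genes with EZH2i, CBPi and FSK, in columns for genes with the core in a promoter window, with a window and no core, and with no window in the table. The 7 genes with the core lie above 0 in all 3 comparisons, and EPRS1 is the lowest point among those without it.

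Genes of the surrounding pathways were read from lists chosen with earlier results of these data known, so their directions are no independent evidence. Of 26 genes made up of ATF4 and its known targets other than synthetases, 22 rose and 3 fell with EZH2i, 24 rose and 2 fell with CBPi, and 22 rose and 1 fell with FSK. The medians were 1.01, 1.66 and 0.94 on the log2 scale. Of all genes tested, 29.5% were called higher and 28.3% lower with EZH2i, 29.8% and 29% with CBPi, and 25.5% and 25.1% with FSK. ATF4 messenger RNA itself held 190.1, 197 and 201 CPM in the baseline libraries and 298, 278 and 297 CPM in the FSK libraries, a 1.48-fold rise (adjusted p = 2.21e-10). The EZH2i libraries held 210, 219.5 and 216 CPM, a 1.1-fold rise (adjusted p = 0.00744), and the CBPi libraries 260.2, 263 and 257 CPM, a 1.33-fold rise (adjusted p = 3.29e-08). ASNS, asparagine synthetase, rose 2.83-fold, 4.58-fold and 3.36-fold. DDIT3, the transcription factor CHOP, rose 2.69-fold, 5.91-fold and 2.83-fold. The largest changes in the list with CBPi were those of ALDH1L2, a mitochondrial folate enzyme (3.35), CHAC1, a glutathione-degrading enzyme (3.07), SLC7A11, the cystine transporter (2.80), and TRIB3, a pseudokinase (2.57). ATF5 and PSPH, the last enzyme of serine synthesis, fell with both inhibitors, and PSPH with FSK. SLC6A9 fell with EZH2i (log2 fold change -0.47) but rose with CBPi (0.73) and FSK (1.43).

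A list of 9 genes held EIF2S1, a subunit of eIF2 itself, and genes that sense uncharged tRNA or control eIF2 phosphorylation. With EZH2i 5 of the 9 rose and 1 fell, which was EIF2S1 (log2 fold change -0.23). In this sensing list 6 rose and 1 fell with CBPi, and 4 rose and 2 fell with FSK. Of the 10 mitochondrial translation factors, 8 fell and 2 did not pass with EZH2i (median -0.36), 5 fell and 2 rose with CBPi (-0.15), and 1 fell and 5 rose with FSK (0.05). The 6 cytosolic elongation factors were mixed, with 2 higher and 4 lower with EZH2i, 2 and 2 with CBPi, and 4 higher and 2 that did not pass with FSK. Of the 10 accessory genes of tRNA charging, 1 rose and 5 fell with EZH2i, 3 rose and 4 fell with CBPi, and 3 rose and 1 fell with FSK. This list also holds TARS3, itself a threonine synthetase but not among the members, which did not pass in any comparison with baseline. Of all genes, 57.8% were called with EZH2i, 58.9% with CBPi and 50.6% with FSK. In the accessory list the shares called with either inhibitor (6 of 10 and 7 of 10) lie near these. So does that of the sensing list with EZH2i (6 of 9). The same holds for the mitochondrial translation factors and the cytosolic elongation factors with CBPi, and for each list in this paragraph with FSK. These counts are no result about those lists.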

How the data were processed

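Per the submitters' processing notes, reads were aligned with STAR to hg38 and counted with featureCounts. Not given in the sources used here were versions, annotation, strand setting and the treatment of multimapping reads. The authors deposited estimated counts (expected counts), not normalized, for 60617 genes, and 65.6% of non-zero values are whole within 1e-06. A gene length in bases, deposited in the same table, was used for RPKM. Rounded values entered edgeR 4.0.16 in R 4.3.3 (filterByExpr by group, 20360 genes, TMM, 1 robust quasi-likelihood model over 12 libraries, Benjamini-Hochberg, threshold 0.05). The SE of a log2 fold change is its size over the square root of the F statistic. The pipeline was run on simulated counts in which far fewer genes changed than were called here. That run is therefore no check on the scaling of these data. Replicates were numbered in accession order. All 35 members are counted. Up to 6 with the largest changes in each direction among those that passed, and those against their group, are given by library. The members and lists were chosen with earlier results of these data known. Positions are from GENCODE 29 (GRCh38). Alternatives were DESeq2 1.42.0, limma voom (limma 3.58.1), other scalings and filters, a fit of the 2 groups compared, a test against 1.5-fold and leaving out each library. Protein sequences were not analysed here.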

Additional observations from a re-analysis of the deposited data

How the results depend on the processing

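Of 2100 values for single genes under an alternative, 1925 kept direction and side of the threshold, 126 lost the call (76 of them in the test against 1.5-fold), 33 gained one and 16 turned, 0 of these in a gene that had passed. The turned values belong to genes near 0. On leaving out 1 library, with CBPi KARS1 ranged from -0.06 to 0.024 (0.01 without baseline replicate 2, 0.013 without baseline replicate 3), PARS2 from -0.089 to 0.05 and RARS2 from -0.021 to 0.098. With FSK LARS2 ranged from -0.042 to 0.009 (0.003 without baseline replicate 3) and PARS2 from -0.03 to 0.019 (0.002 without baseline replicate 3). Between the inhibitors QARS1 ranged from -0.03 to 0.053 (-0.006 without EZH2i replicate 1), AARS2 from -0.033 to 0.033 (0.005 without EZH2i replicate 3), NARS2 from -0.021 to 0.099 and VARS2 from -0.042 to 0.177, and QARS1 was -0.005 with library size only. The test against 1.5-fold left 2 cytosolic rises, 1 cytosolic fall and 4 mitochondrial falls with EZH2i, 1 cytosolic and 0 mitochondrial falls with CBPi (6.14% of all genes were called lower in this test), 7 cytosolic rises and 0 mitochondrial calls with FSK, and 2 cytosolic rises, 0 cytosolic falls and 1 mitochondrial rise between the inhibitors; it asks for a larger change. Counts moved as follows in other settings, and the cause was not tested. With FSK, library size only gave 1 cytosolic fall, 2 mitochondrial rises and 3 mitochondrial falls, while RLE scaling and the fit of 2 groups each gave 2 mitochondrial falls. With CBPi, no filter gave 1 mitochondrial rise. Between the inhibitors, cytosolic falls were 3 with library size only or upper quartile scaling and 2 with RLE scaling or the filter of 1 CPM in 3 libraries, and mitochondrial falls were 1 with library size only or upper quartile scaling. Leaving out 1 library gave 2 to 3 cytosolic falls and 13 to 15 mitochondrial falls with EZH2i; 11 to 12 cytosolic rises, 2 to 4 cytosolic falls, 0 to 1 mitochondrial rises and 9 to 11 mitochondrial falls with CBPi; 17 to 18 cytosolic rises, 3 to 5 mitochondrial rises and 1 to 2 mitochondrial falls with FSK; and 0 to 2 cytosolic falls, 8 to 10 mitochondrial rises and 0 to 1 mitochondrial falls between the inhibitors. The gap between compartments, less that at baseline, was 0.632 with EZH2i (0.612 to 0.655 on leaving out 1 library), 0.78 with CBPi (0.773 to 0.788) and 0.406 with FSK (0.391 to 0.426). Without EPRS1, an alternative chosen after seeing the data, it was 0.713 and 0.86 with the inhibitors, and without KARS1 and GARS1 it was 0.764 with CBPi. No paired analysis was possible because the labels give no replicate numbers that the groups share. The 6 largest SEs in each of the 4 comparisons were those of WARS2, VARS2, NARS2, FARS2, PARS2 and SARS2, between 0.0802 and 0.0979, where a small change is hardest to detect.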

Other observations

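EPRS1, the highest synthetase, lies on the minus strand at chr1:219968601-220046658, and IARS2, the highest mitochondrial one, lies on the plus strand at chr1:220094102-220148041, with BPNT1 between them (GENCODE 29, GRCh38). Both fell with either inhibitor. Other protein-coding genes within 500 kb that were tested had lower levels: SLC30A10, a zinc and manganese transporter, was at 19.4 RPKM, and BPNT1, a nucleotidase, was at 16.2 RPKM. RAB3GAP2 was at 6.18 RPKM and MARK1, a kinase, at 3.61 RPKM. SLC30A10 fell with EZH2i (log2 fold change -0.31) and CBPi (-0.32), and BPNT1 fell with EZH2i (-0.29) and did not pass with CBPi (-0.09). RAB3GAP2 did not pass with EZH2i (0.063) and rose with CBPi (0.32), and MARK1 rose with EZH2i (0.24) and CBPi (0.26). These genes were chosen by position after the level of EPRS1 had been seen, and copy number was not measured.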
